A study of Homo sapiens with 41 samples.

Results

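The genes described here encode the proteins of the cytosolic ribosome, in human lung cell cultures with and without gold nanoparticles. They were chosen by symbol: RPL or RPS followed by a number, with an optional A, X or L and a further number, together with RPLP0, RPLP1, RPLP2 and RPSA. Of the 57773 genes in the count table, 87 had such a symbol, 53 for the large and 34 for the small ribosomal subunit. RNA was sequenced as 41 libraries in 14 groups of a tetra-culture model of the lung alveolus. The titles do not say whether same-numbered apical and basolateral libraries came from the same cultures, and the main fits treated all libraries as independent. The apical libraries held A549, an epithelial line from a lung adenocarcinoma, with differentiated THP1, a monocytic leukaemia line, at Air Liquid Interface. The basolateral libraries held EA.hy296, the labels' spelling for an endothelial line, kept Submerged. In each compartment 1 group had no treatment, and the others were exposed for 24 h to Au spherical NP, Au rods NP or Au stars NP, each at 1000 and at 500, numbers that the labels give without a unit. Each group had 3 biological replicates, except the basolateral spheres at 500, which had replicates 1 and 3.

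A ribosome joins a small subunit, which reads the messenger RNA, to a large subunit, which makes the peptide bond, and each protein is needed in about the same number per ribosome. In mammals the messenger RNAs of these proteins begin with a C and a run of C and T bases at the very start, the 5′ terminal oligopyrimidine tract, through which mTOR signalling sets how strongly they are translated. Because ribosomes are made in proportion to growth, their messenger RNAs are among the most abundant in cultured cells.

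The start of the transcript is the feature that most members shared without its having been used to choose them. The tract was searched at each transcript start in RefSeq promoters of GRCh38.p14, as a C at the first transcribed base followed by at least 4 bases that were each C or T. Of the 67 members with a RefSeq promoter, 47 (70.1%) had it at 1 start or more, against 1404 of all 27305 genes with a promoter (5.14%). The stretches below show the last 15 bases before the start and the first 15 of the transcript, with the tract in capitals. They are shown for members that the results turn on: RPL36A, RPL11 and RPL24 were higher in basolateral controls, RPS16 and RPS27A were lower, and RPS27, RPS27L, RPL26 and RPL26L1 are a pair of genes and their paralogs.
RPL36A (chrX:101390996-101391025, plus strand): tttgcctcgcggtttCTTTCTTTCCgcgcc
RPL11 (chr1:23691791-23691820, plus strand): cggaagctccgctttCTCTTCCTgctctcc
RPL24 (chr3:101686704-101686733, minus strand): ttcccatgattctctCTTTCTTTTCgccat
RPS16 (chr19:39435935-39435964, minus strand): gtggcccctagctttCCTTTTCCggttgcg
RPS27A (chr2:55232673-55232702, plus strand): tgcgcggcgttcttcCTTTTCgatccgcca
RPS27 (chr1:153990747-153990776, plus strand): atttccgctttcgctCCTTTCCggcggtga
RPS27L (chr15:63157463-63157492, minus strand): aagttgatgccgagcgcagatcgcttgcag
RPL26 (chr17:8383179-8383208, minus strand): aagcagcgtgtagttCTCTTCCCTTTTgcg
RPL26L1 (chr5:172958714-172958743, plus strand): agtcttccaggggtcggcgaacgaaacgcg
RPS27 and RPL26 carried the tract, and their paralogs RPS27L and RPL26L1 had it at none of their listed starts. RPS27A has 3 listed starts, and RPL11 and RPL26L1 have 2 each. For RPS27A and RPL11 the start with the longest tract is shown, and for RPL26L1 1 of its starts. Among 73 mitochondrial ribosomal protein genes, which build a separate ribosome in mitochondria, 6 of 64 with a promoter had the tract.

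Of the 87 genes, 83 had counts in all 41 libraries, and the same number passed the filter on low counts in each comparison. The other 4 were RPL3L, known from muscle, RPL10L, known from testis, and RPL12L3 and RPS10L, which GENCODE 29 annotates as processed pseudogenes. RPL12L3 and RPS10L had no reads. RPL3L reached 0.121 CPM (counts per 1000000 counts of the library) per kilobase of exon in the apical controls. Libraries held 2751299 to 11660653 counts, and the 87 genes took 2.70% to 5.18% of them. The 95% Wilson interval of a library's share was at most 0.0218 percentage points either side, which covers counting error only.

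Levels within the list were far from equal per kilobase of exon, though the order of members depended on the length used. Annotated exons can far exceed the coding sequence, as in RPL14, with 8626 bases of exon and 645 of coding sequence. The count table also has 848 rows for pseudogenes of ribosomal proteins. How reads matching a member and also a pseudogene were counted was not stated, so levels of different members compare only roughly. Per kilobase of exon in GENCODE 29, RPL4, a large subunit protein that lines the exit tunnel, was highest in the apical controls at 656 CPM. RPS6, the small subunit protein phosphorylated downstream of mTOR, stood at 645 CPM, and RPL13A at 468 CPM. Per kilobase of coding sequence the order changed, with RPL41 first and RPL4, RPS6 and RPL13A at ranks 2, 5 and 7. RPL4 alone took 9.77% of the list's counts on average, with 6.38% as its lowest share in a library. The 3 marker genes were present throughout. RPL4 ranged from 2934 to 4445 CPM in apical and from 2879 to 3996 CPM in basolateral libraries. RPLP0, the base of the stalk that binds translation factors, averaged 1114 ± 32.7 CPM in apical and 1236 ± 55.9 CPM in basolateral controls (SD, n = 3 each). RPS27A, which encodes ubiquitin fused to a small subunit protein, ranged from 525 to 875 CPM in apical and from 292 to 649 CPM in basolateral libraries.

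**Figure D1:**
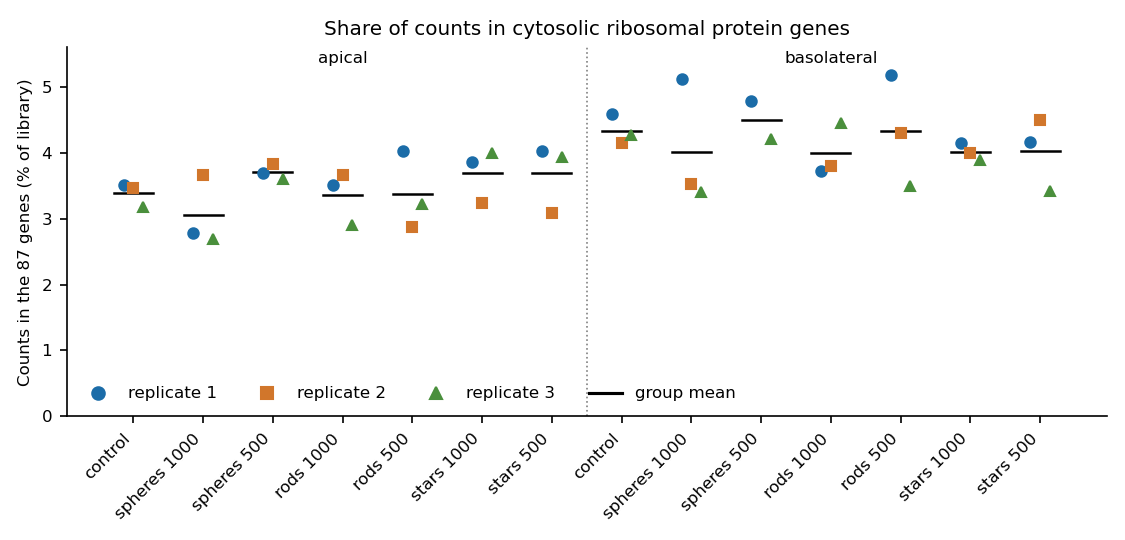
Share of each library's counts that fell in the 87 genes (vertical axis, percent) by group (horizontal axis), with replicates 1, 2 and 3 as circles, squares and triangles and the group mean as a black bar. The apical libraries lie between 2.70% and 4.03% and the basolateral libraries between 3.40% and 5.18%, and most exposed groups spread across the range of their controls.

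Ribosomal protein messenger RNA took a larger share of the counts in basolateral than in apical libraries without any treatment. The share of counts was 4.33% ± 0.22 in basolateral and 3.38% ± 0.18 in apical controls (SD, n = 3 each), and the 2 sets of libraries did not overlap. Of the 83 members tested, 55 were higher and 2 were lower in basolateral controls at an adjusted p under 0.05 (edgeR's quasi-likelihood test with Benjamini-Hochberg adjustment over all genes tested). Of all 14198 genes tested, 54.1% were called, 27.4% higher and 26.7% lower, so the members leaned to one side where the table as a whole did not. The median log2 fold change of basolateral over apical controls was 0.64 over the members and 0.01 over all genes. Since the libraries are bulk RNA, fewer cells of a type and less RNA per cell cannot be told apart.

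Both subunits contributed. Of 50 tested large subunit genes 39 were higher and none was lower, and of 33 small subunit genes 16 were higher and 2 were lower. The median log2 fold change was 0.71 for the large and 0.47 for the small subunit genes, a difference that was not tested.

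RPL36A, a large subunit protein near the site where spent transfer RNA leaves, had the largest difference. It lies at chrX:101390824-101396154 in GENCODE 29. Its level was 196, 194 and 168 CPM in the apical controls and 587, 490 and 430 CPM in the basolateral controls. The groups were well apart, with a log2 fold change of 1.58 ± 0.12 (SE; adjusted p = 6.57e-05, edgeR). RPL11, which with RPL5 also binds the p53 regulator MDM2, measured 87.5, 80.4 and 73.9 CPM in apical controls. In basolateral controls it measured 228, 197 and 160 CPM, again with no overlap, for a log2 fold change of 1.42 ± 0.13 (adjusted p = 0.000119, edgeR).

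Several further members about doubled in level. RPL24, which forms a bridge between the subunits, averaged 123 ± 7.35 CPM in apical and 257 ± 17.6 CPM in basolateral controls (SD, n = 3 each), a log2 fold change of 1.21 ± 0.09 with an adjusted p of 5.36e-05 from edgeR. RPS15, in the head of the small subunit, averaged 171 ± 6.63 and 373 ± 33.2 CPM, and RPS2, beside the path of the messenger RNA, 883 ± 24.9 and 1919 ± 300.3 CPM, in the same order. Their log2 fold changes were 1.27 and 1.26. RPL15, a large subunit protein, went from 482 ± 37.2 CPM in apical to 1005 ± 95.5 CPM in basolateral controls. The remaining members among the 10 smallest p-values were RPL34, RPL38, RPL23 and RPS27L, with log2 fold changes of 1.06, 1.01, 1.00 and 1.32. RPL38 is known in mice for its part in translating homeobox messenger RNAs. All 10 had every basolateral control above every apical control, as did 52 of the 83 members against 27.7% of all genes. The reverse order was seen in 6 members, against 37.3% of all genes.

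RPS16 and RPS27A went the other way. RPS16, a small subunit protein that touches the transfer RNA in the peptidyl site, measured 353, 374 and 362 CPM in apical controls. In basolateral controls it measured 213, 192 and 161 CPM, for a log2 fold change of -0.80 ± 0.11 (adjusted p = 0.0009, edgeR). RPS27A measured 875, 708 and 718 CPM in apical and 411, 313 and 501 CPM in basolateral controls, for a log2 fold change of -0.75 ± 0.19 (adjusted p = 0.0116, edgeR). Neither pair of groups overlapped. Both genes carry the pyrimidine tract shown above, as did 34 of the 45 members called higher that have a promoter entry and 11 of the 19 not called.

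Of the markers, RPLP0 was called higher, with a log2 fold change of 0.29 ± 0.10 (adjusted p = 0.0381, edgeR). That call was lost in 8 of 16 alternatives, among them the other scalings and the fits without basolateral replicate 2, apical replicate 1 or apical replicate 2, and its adjusted p ran up to 0.173. Its stalk partners RPLP1 and RPLP2 were called higher, with log2 fold changes of 0.73 and 0.80. RPL4 was not called, with a log2 fold change of 0.12 ± 0.15 that was -0.03 with no scaling beyond library size. Its 3 basolateral controls, at 3302, 3577 and 3996 CPM, lay inside the span of the apical ones, at 3252, 3775 and 4065 CPM. RPL4 hosts 4 small nucleolar RNA genes that are rows of the table, and these had no reads in either control group. RPS6 had a log2 fold change of -0.10 ± 0.13 and RPL13A one of 0.07 ± 0.12, so that none of the 3 members with the highest apical level per kilobase of exon was called. RPS19, which varied least across the 14 group means, had a log2 fold change of 0.20 ± 0.12.

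**Figure D2:**
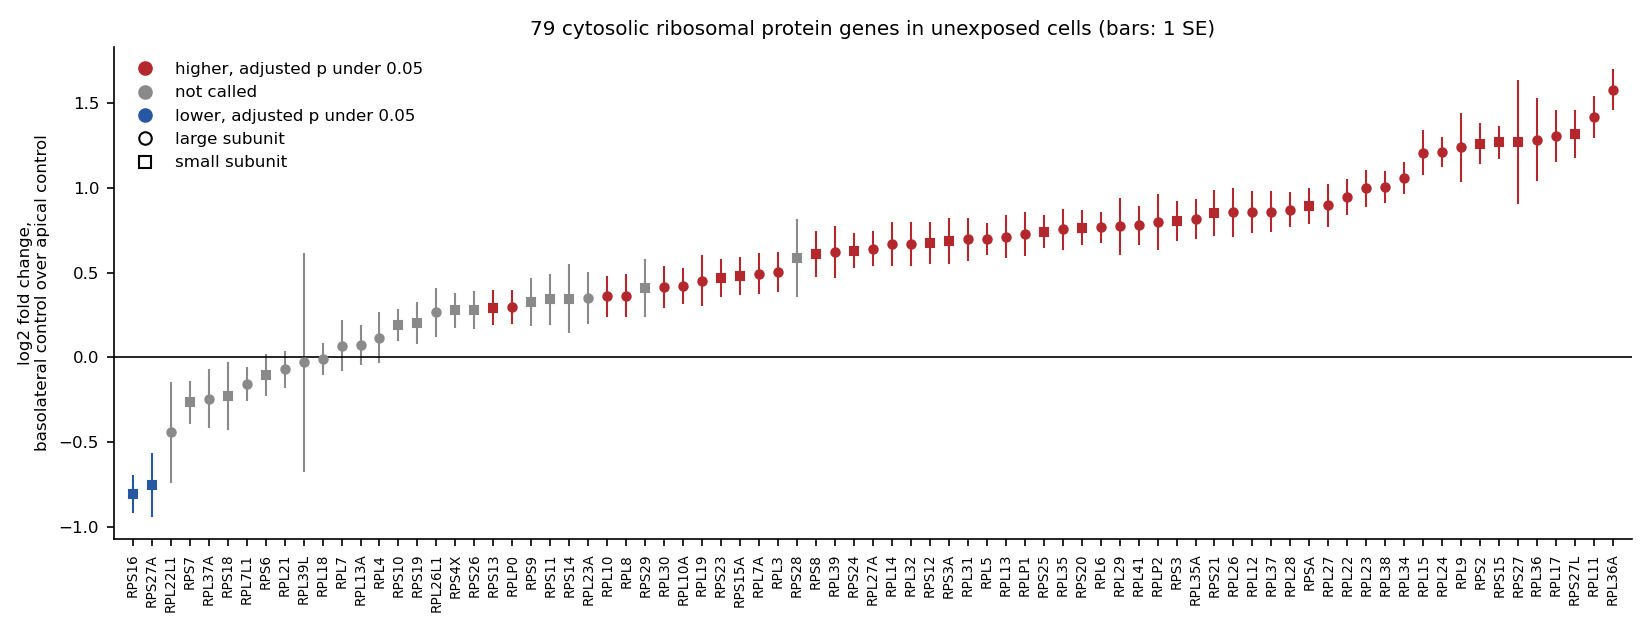
Log2 fold change of basolateral over apical controls for 79 of the 83 tested members (vertical axis; bars are 1 SE, n = 3 libraries per group), ordered along the horizontal axis, circles for the large and squares for the small subunit. Red marks members called higher, blue RPS16 and RPS27A, and grey the members not called.

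The paralogs, genes named after a member with an L, split into separate patterns. RPS27L, a p53 target that resembles RPS27, measured 75.9, 88.2 and 85.9 CPM in apical and 176, 176 and 212 CPM in basolateral controls, and RPS27 itself averaged 43.6 ± 10.5 and 95.9 ± 45.3 CPM in the same order. Both were called higher, with log2 fold changes of 1.32 ± 0.14 and 1.27 ± 0.37. The call of RPS27 was lost in 7 of 16 alternatives, among them the replicate block and the fits without basolateral replicate 2 or any 1 of the apical controls, with an adjusted p of up to 0.0889. RPL22 was also higher, with a log2 fold change of 0.95. RPL22L1, its paralog, averaged 33.3 ± 7.67 CPM in apical and 22.2 ± 8.53 CPM in basolateral controls, overlapping groups with a log2 fold change of -0.44 ± 0.30. RPL26 and RPL39 were called higher, at 0.86 and 0.62 on the log2 scale. RPL26L1 had a log2 fold change of 0.27 ± 0.14, and RPL39L, best known from testis and present at 2.80 CPM in apical controls, one of -0.03 ± 0.65. RPL7 and RPL7L1 had log2 fold changes of 0.07 and -0.16, and neither was called.

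The difference between compartments was also present in exposed cultures, with fewer calls and lower medians with stars. A direct test of whether it changed from the controls called 0 members with stars at either number. With all 14 groups in 1 fit, 43 members were called higher and 2 lower between the controls, 40 and 2 with spheres at 1000, 34 and 2 with spheres at 500, 36 and 1 with rods at 1000, and 40 and 3 with rods at 500. With stars the counts were 27 and 2 at 1000, and 23 and 4 at 500, of 83 members tested. With stars at 500 the share of members called higher was near that of all genes, 23.6%. The median log2 fold change of the members in this fit was 0.60 between controls, 0.23 with stars at 1000 and 0.26 with stars at 500. Of all genes, 21.8% to 24.2% were called higher and 22.9% to 29.3% lower in the single conditions. Averaged over the 7 conditions, 59 members were higher and 10 were lower in basolateral libraries, against 36.2% and 43.2% of all genes. In each of the 7 conditions 22 members were called higher, and RPS16 alone was called lower.

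Taken over libraries, 11 of the 83 members (13.3%) had all 20 basolateral values above all 21 apical values. Of the 16352 genes tested, 11.3% had this order, so the share of the members was near the background. The reverse order was seen in 0 members, against 14.5% of all genes. Among the 11 were RPL9, RPL15, RPL24, RPL32, RPL35A, RPL36, RPS3, RPS20, RPS27L and RPSA, a list set by its values. RPL15 ranged from 401 to 587 CPM in apical libraries, with a median of 504 CPM. In basolateral libraries it ranged from 862 to 1120.1 CPM, with a median of 951 CPM, leaving a wide gap. RPS27L ranged from 62.0 to 104 CPM and from 127 to 238 CPM, and RPSA, also known as a laminin-binding protein, from 365 to 633 CPM and from 668 to 865 CPM. The mean log2 fold change over the 7 conditions was 1.04 ± 0.04 for RPL15 (SE; adjusted p = 8.51e-21, edgeR) and 1.15 ± 0.08 for RPS27L.

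RPS16 had a mean log2 fold change of -0.81 ± 0.06 over the 7 conditions, between -0.91 and -0.65 in the single conditions. It ranged from 257 to 412 CPM in apical and from 148 to 269 CPM in basolateral libraries, so that only the extremes met. RPS27A was less even, at -0.80 in the least and -0.06 in the most similar condition, and was called lower in 4 of the 7. RPL36 and RPL36A, among the 3 members that varied most across the 14 group means, had mean log2 fold changes of 1.29 ± 0.09 and 1.26 ± 0.10. RPL11 went from 1.38 between controls to 0.49 with stars at 500. RPS27 was called in none of the 7 single conditions, with a log2 fold change of 1.24 between controls and -0.28 with stars at 500. RPL22L1 and RPL7L1, not called between controls, had mean log2 fold changes of -0.58 ± 0.16 and -0.29 ± 0.05, both past an adjusted p of 0.05 in edgeR.

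**Figure D3:**
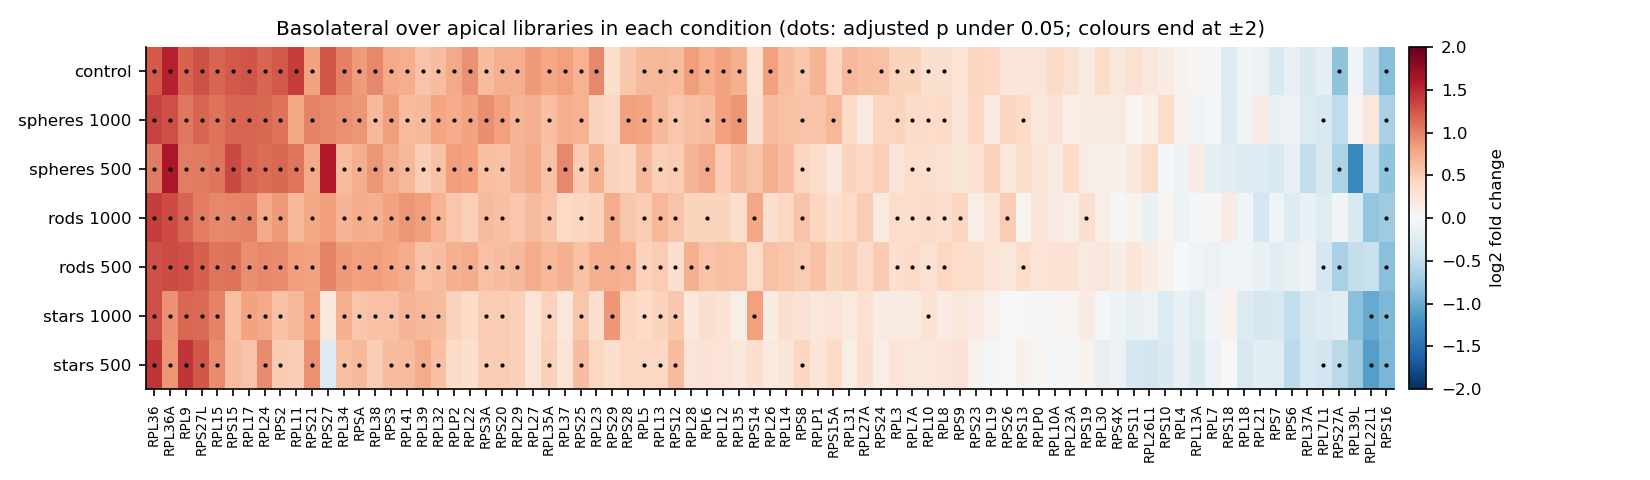
Log2 fold change of basolateral over apical libraries (colour, red higher and blue lower) for 79 of the 83 tested members (horizontal axis, ordered by the mean over conditions) in each of the 7 conditions (vertical axis), with a dot where the adjusted p was under 0.05. The colour scale ends at 2 and no value shown exceeds it, and RPL15, RPL36 and RPS27L are red and dotted in all 7 conditions while RPS16 is blue and dotted in all 7.

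**Figure D4:**
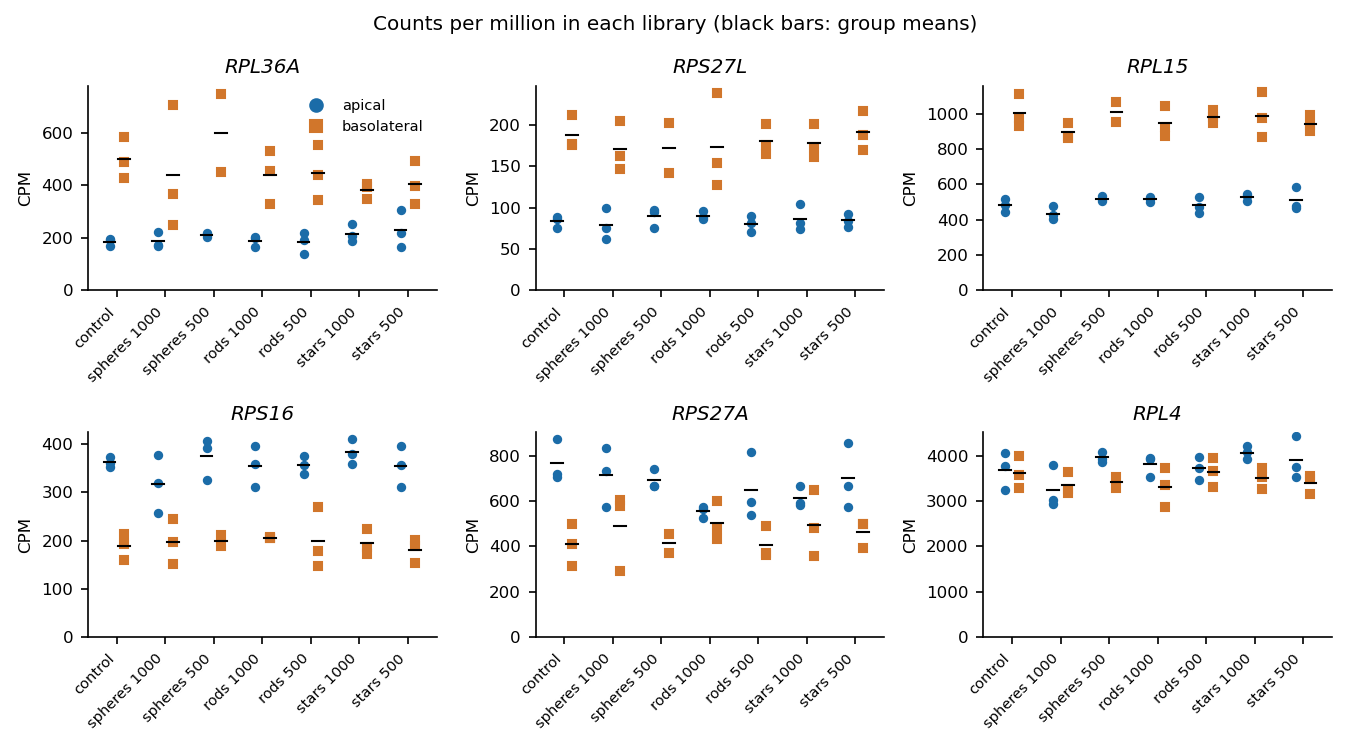
CPM in each library (vertical axis, from 0) for 6 members across the 7 conditions (horizontal axis), with apical libraries as blue circles, basolateral libraries as orange squares and group means as black bars. RPL15 and RPS27L are separate in all 41 libraries, RPL36A and RPS16 nearly so, and RPS27A and RPL4 overlap.

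The 2 compartments differ in cell type, and sums of cell markers differed between them. The endothelial sum was higher in basolateral libraries, like most members, and the other sums tended to be lower there. Of 12 endothelial markers 10 had counts in every basolateral library, and their sum ranged from 2003 to 3173 CPM there and from 31.5 to 97.9 CPM in apical libraries. The 12 epithelial markers summed to 676 to 5342 CPM in basolateral and 14871 to 23510 CPM in apical libraries, and the 10 macrophage markers to 39.2 to 265 and 620 to 1118 CPM. Mast cell markers, 9 in the list with KIT the most abundant, summed to 12.7 to 312 CPM in basolateral and 168 to 1476 CPM in apical libraries, with 6 of 9 present in every apical library. The 7 fibroblast markers stayed at or under 7.06 CPM in sum, with LUM at 0 in all basolateral libraries. Proliferation markers, 10 in number, summed to 764 to 1520 CPM in basolateral and 1602 to 2606 CPM in apical libraries. The part of any of these in the members' difference cannot be told apart from the compartment.

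No member was called in any of the 12 comparisons of exposed with unexposed cultures by edgeR. In each of those fits 0% of all genes were called, so the count of members carries no contrast with the table. DESeq2 and limma-voom called 0 members too. Of the 996 member tests over the 12 comparisons, 44 had an unadjusted p under 0.05, against 1.71% of all gene tests, and 4 comparisons had none. The median log2 fold change of the members lay between -0.14 and 0.13, while the median SE of a single member was 0.09 to 0.21.

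**Figure D5:**
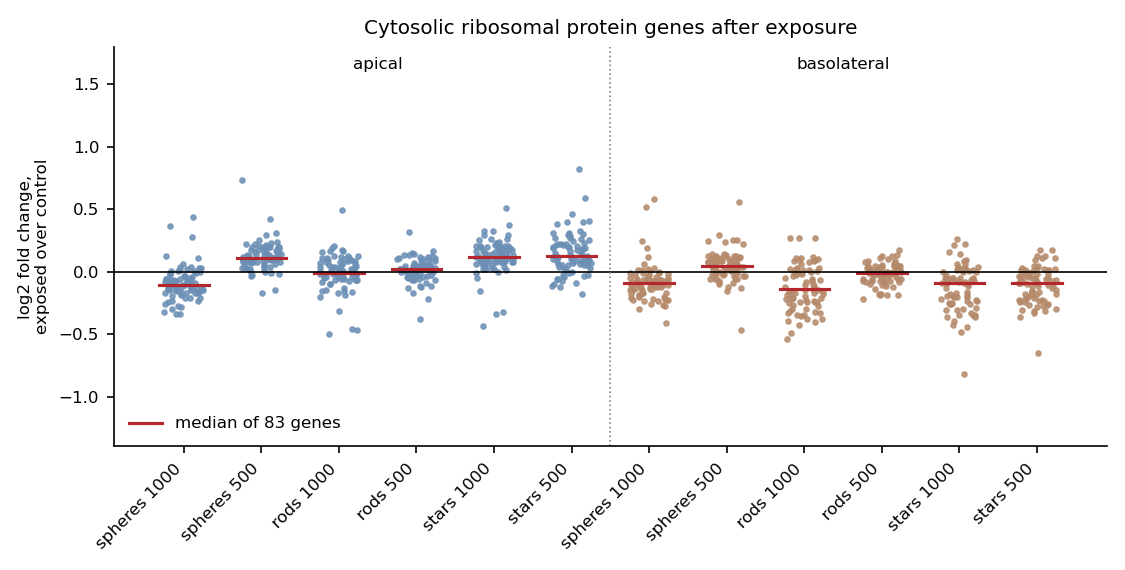
Log2 fold change of exposed over unexposed cultures (vertical axis) for 79 of the 83 tested members (points) in the 12 comparisons (horizontal axis), with the median of all 83 tested members as a red bar. The medians stay between -0.14 and 0.13, and most points lie within 0.5 of 0.

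In apical cultures the sign of the members' median differed between particles, and no median exceeded 0.13 in size. The median log2 fold change was -0.11 with spheres at 1000, 0.11 with spheres at 500, -0.01 with rods at 1000 and 0.02 with rods at 500. It was 0.12 with stars at 1000 and 0.13 with stars at 500. All 6 comparisons share the same 3 control libraries. With spheres at 1000, 15 of 83 members had a positive fold change, against 75 with spheres at 500 and 75 with stars at 1000. The members share libraries, so these counts are not separate observations. The median over all genes was within 0.01 of 0 in each apical comparison.

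In some groups the replicates lay on both sides of the control mean. Against the apical control mean, the median of the members in single apical libraries ran from -0.30 to 0.27 on the log2 scale. The libraries with spheres at 1000 stood at -0.26, 0.14 and -0.28, so that replicate 2 lay above and the others below the control mean. Those with rods at 500 stood at 0.26, -0.30 and -0.06. The controls themselves ran from -0.11 to 0.07. With spheres at 500 the 3 libraries stood close together, at 0.13, 0.20 and 0.10.

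The apical libraries also fell into 3 sets by KIT, with medians of 861, 459 and 110 CPM, and the sets were defined from these measured values, not from the labels. The members took 2.70% to 3.23% of counts in the set with the least KIT and had medians of 3.69% and 3.66% in the other sets. The sets matched replicates 1, 2 and 3 in the controls and with spheres and rods at 1000. They did not with spheres at 500, where replicates 2 and 3 shared a set, with rods at 500, where replicates 2 and 3 shared the set with the least KIT, or with stars, where replicate 2 was in the set of control replicate 3 and replicate 3 in that of control replicate 2. Against the control library of the same set, a comparison chosen after seeing the data, stars at 1000 stood at 0.13, 0.03 and 0.21 in replicates 1, 2 and 3, and spheres at 500 at 0.07, 0.15 and 0.06, all above 0. Spheres at 1000 stood at -0.30, 0.11 and -0.20, and rods at 500 at 0.20, -0.18 and 0.06. Each of these uses a single control library. With the set as a term in 1 fit of all apical groups, the median of the members was 0.01 with spheres at 500, -0.11 with spheres at 1000, -0.02 with rods at 1000 and 0.12 with rods at 500 and with stars at both numbers, and edgeR called 0 members in each of the 6 apical comparisons.

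Spheres at 500 gave the tightest apical shift before the sets by KIT were taken into account. Of the 83 members, 29 had every exposed library above every control, against 6.37% of all genes. An unadjusted p under 0.05 was reached by 11 members, all higher, against 1.4% of all genes higher. RPL11 measured 131, 99.7 and 98.6 CPM against 87.5, 80.4 and 73.9 CPM in the controls, with no overlap. Its log2 fold change was 0.42 ± 0.12, but its adjusted p was 1.00 in edgeR. RPL34 measured 119, 131 and 121 CPM against 109, 96.6 and 88.8 CPM, and RPL23 303, 313 and 311 CPM against 242, 287 and 247 CPM, neither overlapping. The sum of the 9 mast cell markers was 711 to 1367 CPM in these libraries and 193 to 1229 CPM in the controls. No library with spheres at 500 was in the set with the least KIT, while 1 of the controls was. In the fit above with the set as a term, the median of the members with spheres at 500 was smaller than without it. The part of the sets in the shift was not tested beyond that fit.

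RPS27A was below its control mean in every apical exposure group, at 715 ± 131 CPM with spheres at 1000, 693 ± 43.2 with spheres at 500, 555 ± 26.1 with rods at 1000 and 651 ± 146 with rods at 500. With stars it averaged 613 ± 46.4 CPM at 1000 and 701 ± 143 CPM at 500, against 767 ± 93.6 CPM in the shared controls (SD, n = 3 each). The exposed libraries were all below the controls with rods at 1000 and with stars at 1000. This order held for 3 members with rods, against 3.6% of all genes, and for 2 with stars, against 3.37%, shares near the background. The log2 fold changes of RPS27A were -0.47 ± 0.11 and -0.33 ± 0.12. Neither passed the adjusted test. With the replicate number as a block, which the data allow for rods at 1000, RPS27A was the 1 member called there (adjusted p = 0.0388, edgeR), against 0.0352% of all genes. RPS29 showed the same order in both groups, with log2 fold changes of -0.46 ± 0.17 and -0.44 ± 0.16. It measured 38.7, 38.6 and 30.3 CPM with rods at 1000, against 60.1, 40.8 and 46.8 CPM in controls. RPS14, a gene tied to a form of marrow failure, measured 138, 139 and 98.3 CPM with rods at 1000 and 233, 151 and 147 CPM in controls. Its log2 fold change was -0.50 ± 0.21 and it was not called.

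With stars at 1000, RPL23, RPL26, RPS2, RPL35A and RPLP0, 5 of 83 members, had all exposed libraries above all controls, against 3.51% of all genes. RPL26 measured 739, 639 and 863 CPM against 623, 617 and 579 CPM, a log2 fold change of 0.30 ± 0.12. RPS2 measured 1002, 971 and 1219 CPM against 882, 909 and 859 CPM, a log2 fold change of 0.27 ± 0.11. None was called. With spheres at 1000, RPLP2 measured 143, 195 and 156 CPM against 207, 197 and 206 CPM. All 3 exposed libraries were below all controls for 3 members, RPLP2 and RPL10 among them, against 4.3% of all genes. The 13 genes encoded in mitochondria summed to 17700 to 26147 CPM in those libraries and to 7767 to 18731 CPM in the controls. Whether the mitochondrial share has a part in the members' lower share there was not tested.

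In basolateral cultures the list lay slightly below the control in 5 of the 6 groups. The median log2 fold change was -0.09 with spheres at 1000, 0.04 with spheres at 500, -0.14 with rods at 1000 and -0.01 with rods at 500. It was -0.09 with stars at both numbers. Here too all comparisons share 3 controls, and single libraries ran from -0.37 to 0.32 around the control mean. The spread within a group was widest with spheres at 1000, whose libraries stood at 0.32, -0.24 and -0.37. Replicate 1 libraries of the basolateral groups held more KIT, with a median of 113 CPM against 26.5 and 1.75 CPM in replicates 2 and 3, and the members took medians of 4.58%, 4.07% and 3.89% of counts in the same order. The part of these in the members' values was not tested.

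Stars at 1000 had the most members with a low unadjusted p, 13 of 83, all lower, against 0.91% of all genes. With the replicate block, which the data allow here, 30 members had an unadjusted p under 0.05 and none was called. The 0.91% comes from the fit without the block. The share of all genes with the block is not given, so the 30 have no background here. In 7 members every exposed library was below every control, against 3.12% of all genes. RPL23, which like RPL11 binds MDM2, measured 373, 389 and 377 CPM with stars at 1000 and 471, 474 and 455 CPM in the controls. The gap was larger than the spread in either group, with a log2 fold change of -0.30 ± 0.09, yet the adjusted p was 1.00 in edgeR. RPL36A measured 395, 405 and 348 CPM against 587, 490 and 430 CPM, and RPL28 206, 199 and 145 CPM against 277, 246 and 214 CPM. Their log2 fold changes were -0.40 ± 0.12 and -0.43 ± 0.14. With stars at 500, RPL23 measured 385, 440 and 358 CPM and RPL28 206, 212 and 155 CPM, again below all controls as in 5 members, against 2.43% of all genes, with log2 fold changes of -0.24 ± 0.10 and -0.36 ± 0.13. With rods at 1000, RPL28 had a log2 fold change of -0.38 ± 0.13, RPL22 one of -0.36 ± 0.13 and RPL12 one of -0.32 ± 0.12, and of these RPL12 alone had all exposed libraries below the controls. That order held for RPL12 and RPS10, 2 members, against 3.32% of all genes. With spheres at 500, RPLP0 and RPS13, 2 members, had both exposed libraries above the controls, against 6.09% of all genes. RPS27A, below its control mean in every apical exposure group, was not low here. Its log2 fold changes were 0.25 with spheres, 0.27 with rods and 0.26 with stars at 1000, each within 2 of its SEs of 0. At 500 they were 0.01 with spheres, -0.02 with rods and 0.18 with stars, also within 2 SEs of 0.

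Comparisons among particles gave no call. For 1000 against 500 of the same shape, 6 contrasts and 498 member tests, edgeR called 0 members and 0% of all genes, with 11 member tests under an unadjusted p of 0.05, against 1.94% of all gene tests. Of these, 10 were in apical spheres, where all 10 were lower at 1000, against 4.05% of all genes in either direction, and the median log2 fold change of the members was -0.23. RPS3A measured 765, 963 and 677 CPM with spheres at 1000 and 1102, 1236 and 1088 CPM at 500, groups that did not overlap. Its log2 fold change was -0.48 ± 0.15, with an adjusted p of 0.947 in edgeR. Between shapes at the same number, 12 contrasts and 996 member tests, edgeR called 0 members and 0% of all genes, with 24 member tests under an unadjusted p of 0.05, against 2.25% of all gene tests. Apical spheres against stars at 1000 held 16 of them, against 5.29% of all genes, with a median of -0.22.

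Whether a particle's effect differed between compartments was tested for 6 particles and 498 member tests, and edgeR called 0 members and 0% of all genes, with 4 member tests under an unadjusted p of 0.05, against 2.58% of all gene tests. The medians of this difference, basolateral minus apical response, were all negative, from -0.27 with stars at 1000 to -0.03 with spheres at 1000. The median over all genes was -0.02 with stars at 1000 and -0.03 with spheres at 1000. All 6 use the same control libraries of both compartments, so their shared sign is not 6 separate observations. RPS2 had a difference of -0.63 ± 0.28 with stars at 1000 and of -0.70 ± 0.28 with stars at 500. RPS27A had one of 0.74 ± 0.31 with rods at 1000. Their adjusted p-values were 1.00.

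The lists of other genes of the pathway had lower median differences between the controls than the 0.64 of the members, which was not tested. Of all genes tested between the controls, 27.4% were called higher and 26.7% lower, the background for the counts that follow. Of 15 translation genes known for the same tract at their start, 6 were higher and 1 was lower in basolateral controls, with a median log2 fold change of 0.17, and 9 of 10 with a promoter had the tract. EEF2, the elongation factor that moves the ribosome along, had a log2 fold change of 1.01 ± 0.10, NACA one of 0.92 and EEF1G one of 0.87, and EIF3H, a subunit of an initiation factor, was lower by -0.37 ± 0.10. PABPC1 and NPM1 were not called. Of 30 ribosome assembly genes, 16 were higher and none was lower, with a median of 0.37. Among them were EIF6, which keeps the subunits apart, at 1.24 ± 0.15, the kinase RIOK2 at 0.89, RRS1 at 1.27 and the export adaptor NMD3 at 0.66. Of 14 genes around mTOR and translation control, 5 were higher and 3 lower, with a median of 0.01. The translation repressor EIF4EBP1 was higher at 1.59 ± 0.17, MTOR was lower at -0.63 ± 0.11, and DDIT4, an inhibitor of mTOR signalling, was lower at -1.84 ± 0.30. Of the 73 mitochondrial ribosomal protein genes, 19 were higher and 7 lower, with a median of 0.03, and the share called higher was near that of all genes. Among genes of other names that also encode ribosomal proteins were RACK1, listed as GNB2L1 and called higher at 0.46 ± 0.10, and FAU, not called, at 0.07. In the 12 exposure comparisons edgeR called none of the genes in these lists.

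The members share more than their start. Of the 86 with an annotation, 28 hold small nucleolar RNA genes inside their introns or exons, 60 such genes in all. Of the 28 hosts 23 were called higher in basolateral controls, with a median log2 fold change of 0.67, and of 54 tested members without one 32 were called higher, with a median of 0.53. The shorter coding sequences had a median of 0.70 and the longer ones 0.49, 41 members in each, and Spearman's rho between coding length and log2 fold change was -0.21 over 82 members, which share libraries and are not independent. By position, chromosome 19 holds 12 members and chromosome 3 holds 9. In GENCODE 29 exons of 11 members overlap another gene on the same strand and those of 37 overlap one on either strand. These include RPL17 and RPL36A, whose read-through genes RPL17-C18orf32 and RPL36A-HNRNPH2 had 9.22 and 0.146 CPM in basolateral controls. How strand and shared exons were treated in counting was not stated, so reads of such pairs cannot be told apart.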

How the data were processed

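Per the labels' protocols, a stranded SMARTer kit was used on 1 µg of total RNA. The authors deposited raw gene counts in 1 table for all libraries. The submitters' processing notes name the build GRCh38.p13; aligner, counter and annotation were not given in those sources. Among low counts, from 1 to 20, 67.7% to 78.9% in a library were even, the reason for which was not tested; if reads of a pair were counted separately, counting intervals are too narrow. CPM are counts per 1000000 of a library's total. Of the gene identifiers, 90.6% were found in GENCODE 29, the source of lengths and positions. Groups follow the titles.

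Comparisons used edgeR 4.0.16 in R 4.3.3: TMM factors, filterByExpr, robust quasi-likelihood fits of the 2 groups, Benjamini-Hochberg adjustment over all genes tested and a threshold of 0.05. Contrasts among particles used 1 fit of all groups of a compartment, and those between compartments over the 7 conditions 1 fit of all 14 groups. Fits were tested on simulated data. Alternatives were other scalings, DESeq2 1.42.0, limma-voom (limma 3.58.1), other filters, the replicate block, omitted replicates and added gene names. Named genes are the called members (up to 10 per direction by p, otherwise 3), the paralogs and their namesakes, RPL4, RPS27A and RPLP0, and those extreme in level per length or in spread over groups; others were named after their values were seen. A few genes are counted in the totals but not reported one by one here. The members and lists were chosen with earlier results of these data known.

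Same-numbered replicates deviated together (every correlation over 0.1) with apical spheres at 1000 (0.172 to 0.494), apical rods at 1000 (0.101 to 0.508), basolateral stars at 1000 (0.138 to 0.4) and basolateral stars at 500 (0.123 to 0.642), and these count as paired. Basolateral spheres at 500 met the same rule, at 0.68 and 0.721, with replicates 1 and 3 only. The design text calls the replicates biological.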

Additional observations from a re-analysis of the deposited data

How the results depend on the processing

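Between the controls, 57 members were called; 50 to 58 were called under other scalings, tools and filters, 45 with all groups in 1 fit, and 51 to 61 with 1 library left out. The median of the members was 0.64, and 0.49 with no scaling beyond library size. With exposed groups in place of controls, chosen after seeing the data, the fit of all groups called 36 (spheres 500), 37 (rods 1000), 29 (stars 1000) and 27 (stars 500). Nearer the controls in that fit were spheres at 1000, with 40 higher and 2 lower, and rods at 500, with 40 higher and 3 lower. Of all genes, 21.8% to 24.2% were called higher and 22.9% to 29.3% lower in the single conditions. In the 12 exposure comparisons and in the contrasts among particles the count stayed at 0 in the alternatives run, leaving out each library included (range 0 to 0), except that the replicate block gave 1 in apical rods at 1000. The replicate block changed no other count: it left 0 in the other exposure comparisons and 57 between controls, where it lost RPS27. With apical spheres at 500, rods at 500 and stars, the replicate numbers did not follow the 3 sets of libraries by KIT, so the block there does not remove the difference between sets. Of the members named, single fold changes turned sign only in those that were not called. Leaving out 1 library did so in these. With apical exposures these were RPL27A (-0.0137 to 0.2371), RPS29 (-0.2641 to 0.0112), RPLP2 (-0.0982 to 0.0089) and RPL9 (-0.3329 to 0.014, with 0.0128 also above 0). With basolateral exposures they were RPS26 (-0.0778 to 0.3155), RPS15 (-0.158 to 0.6322), RPS14 (-0.0253 to 0.3531) and RPS18 (-0.0083 to 0.3265). Between controls they were RPL4 (-0.0122 to 0.2215), RPL39L (-0.3611 to 0.414), RPL7 (-0.0141 to 0.1925) and RPS6 (-0.1561 to 0.0478). With no scaling beyond library size, RPL4 was at -0.03, RPL7 at -0.0844 and RPL13A at -0.0766. With upper quartile scaling RPL7 was at -0.0264 and RPL13A at -0.0206. The cause was not tested. Depth limits RPL39L most among the tested members, at 0.251 CPM in its lowest library.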
